A study of Mus musculus with 20 samples.

Results

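Mouse bone marrow cultures treated with oxidised low-density lipoprotein (oxLDL) were set against the same kinds of culture given native low-density lipoprotein (LDL), with miRNAs read out by small RNA sequencing. The 8 libraries, 4 with oxLDL and 4 with LDL, were picked by their titles out of the 20 of the series, and every oxLDL library has 1 LDL library of the same cell type and genotype as its partner. The 4 cultures are WT C57BL/6 dendritic cells, miR-155 k.o. dendritic cells, WT macrophages and miR-155 k.o. macrophages, and the k.o. animals carry the germline allele B6.Cg-Mir155tm1.1Rsky/J. All animals were killed at 8 to 12 weeks of age. GM-CSF from hybridoma supernatant turned their flushed marrow into dendritic cells, and M-CSF turned it into macrophages. How much of either lipoprotein was given, and for how long, the sources used here do not say. The remaining 12 libraries (unstimulated, LPS and eLDL, a form of LDL that the labels do not spell out) enter only the estimate of spread and a few side-by-side values. Each condition has 1 library, so no condition is replicated. The labels do not say whether the libraries came from separate mice or dishes, and the p-values measure only the spread between these libraries.

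LDL carries cholesterol in plasma and enters cells through the LDL receptor, which cholesterol itself represses. Oxidised LDL is taken up instead by scavenger receptors, which are not repressed in that way, so that macrophages and dendritic cells fed with it load lipid and can become foam cells of the kind found in atherosclerotic plaques. A miRNA is cut from a hairpin as a short duplex. The guide strand is loaded into Argonaute and pairs with target transcripts through its seed, bases 2 to 8, while the other strand, the passenger, is mostly discarded. miRNAs that share a seed, such as the let-7 family, are read as having largely the same targets.

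The sequences below are those of the strands that lead the comparison and of their closest relatives, from RefSeq (GRCm38.p6), with the seed in capitals. The 9 let-7 family members all carry the seed GAGGUAG.
let-7a-5p: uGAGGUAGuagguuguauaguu
let-7b-5p: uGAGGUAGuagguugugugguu
let-7c-5p: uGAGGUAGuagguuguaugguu
let-7d-5p: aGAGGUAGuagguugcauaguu
let-7e-5p: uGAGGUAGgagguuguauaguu
let-7f-5p: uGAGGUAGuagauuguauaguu
let-7g-5p: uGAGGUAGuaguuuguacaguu
let-7i-5p: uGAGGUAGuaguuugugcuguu
miR-98-5p: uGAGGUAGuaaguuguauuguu
miR-26b-5p: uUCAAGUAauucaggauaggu
miR-26a-5p: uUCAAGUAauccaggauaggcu
miR-21a-5p: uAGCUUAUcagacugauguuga
miR-125a-5p: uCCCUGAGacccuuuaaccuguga
miR-125a-3p: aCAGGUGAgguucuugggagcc
The let-7f guide comes from 2 hairpins, at chr13:48537889-48537910 on the minus strand in an exon of the lincRNA 6720427I07Rik and at chrX:151912353-151912374 on the plus strand in an intron of Huwe1. miR-98-5p lies at chrX:151913229-151913250, also in an intron of Huwe1 and next to the second of these. miR-26b-5p lies at chr1:74394324-74394344 in an intron of Ctdsp1. The copies of miR-26a-5p lie in an intron of Ctdspl and in an exon of Ctdsp2. miR-21a-5p lies at chr11:86584120-86584141 on the minus strand, in an exon of Vmp1. The arms of miR-125a lie at chr17:17830817-17830840 and chr17:17830855-17830876 inside Spaca6, where an exon is annotated, next to miR-99b and let-7e. Host genes are as GENCODE M21 annotates them.

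Depth was 13.8 to 17.6 M reads in oxLDL libraries and 10.3 to 22.8 M reads in LDL libraries (M for 1000000), of which 7.64 to 8.85 M and 5.90 to 11.8 M matched miRNAs. Values are given as CPM, the count of a miRNA per 1000000 miRNA reads, on which 3 reads, the upper limit that a count of 0 allows, are 0.339 to 0.393 CPM in oxLDL libraries and 0.255 to 0.509 CPM in LDL libraries (counting error only). The targeted gene was near 0 in k.o. cells. miR-155-5p had 447.9 CPM with oxLDL and 431.8 CPM with LDL in WT dendritic cells, and 33170 and 26742 CPM in WT macrophages. In k.o. cells it had 0.791 and 0.678 CPM in dendritic cells and 5.89 and 4.78 CPM in macrophages, 45 and 33 reads in the macrophages. Its passenger miR-155-3p had no read in any of the 4 k.o. libraries. The 7 myeloid markers summed to 30148.4 to 34244.5 CPM with oxLDL and 29021.2 to 37210.1 CPM with LDL. Among them miR-223-3p had 1582 to 2788 CPM with oxLDL and 1476 to 3574 CPM with LDL. Not every member was abundant. In macrophages miR-511-5p had 12.91 CPM with oxLDL and 14.01 CPM with LDL in WT cells, and 8.901 and 7.677 CPM in k.o. cells. The 9 stromal markers summed to 43.4 to 290.5 CPM with oxLDL and 33.9 to 139.5 CPM with LDL. The 7 epithelial markers summed to 179.9 to 248.5 and 168.7 to 247.9 CPM. The lymphoid marker miR-150-5p reached 168 CPM with oxLDL and 147.5 CPM with LDL, the 4 erythroid markers summed to 479.1 to 1999 CPM with oxLDL and 414.3 to 1904 CPM with LDL, nearly all of it miR-486-5p, while miR-144-3p and miR-451a stayed at or below 3.05 CPM, and miR-133a-1-3p had reads in 1 of these 8 libraries only.

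A pair of libraries stood apart from the other macrophage libraries in the length of their tags, and 1 of them is the LDL library of WT macrophages. The other is the unstimulated library of k.o. macrophages. Of 137 miRNAs with at least 200 reads in each of the 20 libraries, 54 had a longer mean tag in both than in any of the other 8 macrophage libraries, and 0 had a shorter one. The mean tag of miR-652-3p was 19.75 nt with oxLDL and 20.59 nt with LDL in WT macrophages, but 19.81 and 19.76 nt in k.o. macrophages, 20.65 and 20.69 nt in WT dendritic cells and 20.60 and 20.67 nt in k.o. dendritic cells. Its level differed as well. miR-652-3p had 166.0 CPM with oxLDL and 65.1 CPM with LDL in WT macrophages, against 163.1 and 134.7 CPM in k.o. macrophages, and the unstimulated k.o. library had 42.2 CPM. Remnants of the adapter sequence were in 0.00216% of the reads of WT macrophages with oxLDL and 0.000316% of those with LDL, against 0.00252% and 0.00302% in k.o. macrophages. The WT macrophage pair therefore joins a library of each length profile, and the counts of each comparison that rests on it and the changes that shifted most are also given without both libraries. The k.o. library is then the only LDL library of macrophages, so macrophage changes without them take their LDL level from k.o. cells alone. What sets these libraries apart was not tested.

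**Figure D1:**
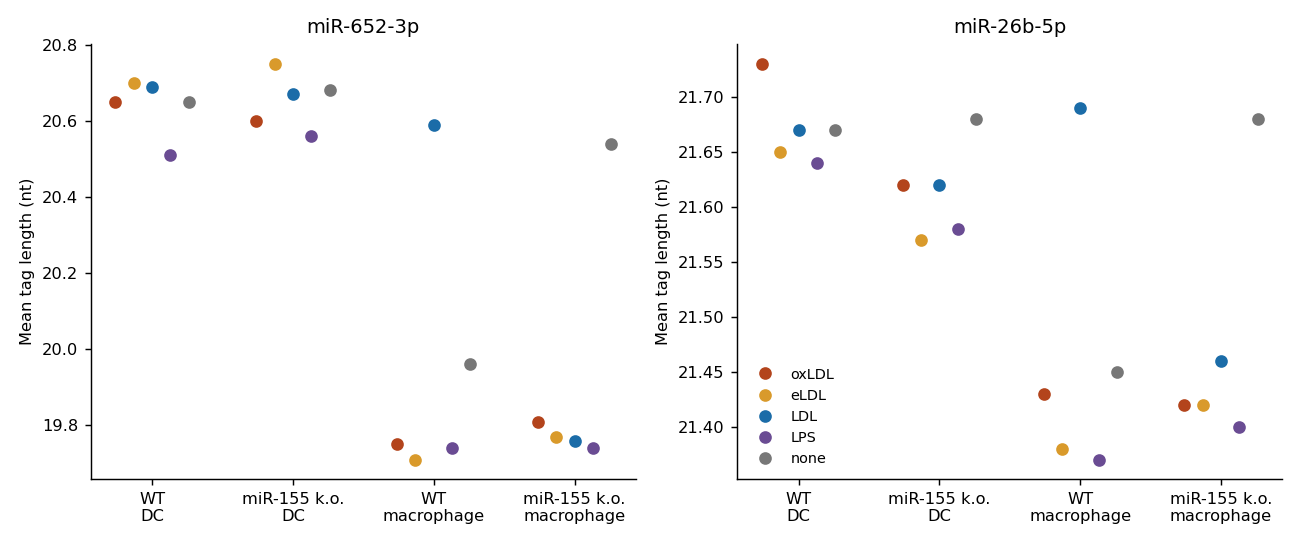
Mean length in nt of tags of miR-652-3p and miR-26b-5p in each of the 20 libraries, grouped by culture (x axis) and coloured by stimulus (none is unstimulated). The WT macrophage LDL library and the k.o. macrophage unstimulated library lie with the dendritic cells, at 20.59 and 20.54 nt for miR-652-3p, above the other 8 macrophage libraries at 19.71 to 19.96 nt.

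The first question was which miRNAs differ between oxLDL and LDL over both cell types. No miRNA passed the test: 0 of 374 (0%) had an adjusted p under 0.05 with edgeR's quasi-likelihood test. At an unadjusted p under 0.05 there were 25 (6.68%), 10 higher and 15 lower with oxLDL, and DESeq2 likewise called 0, with 29 at that unadjusted threshold. Those lowest in p were miR-26b-5p, higher with oxLDL, and miR-125a-3p, lower, both at an adjusted p of 0.287. Without the libraries of longer tags 0 were called and 16 had an unadjusted p under 0.05, 11 higher and 5 lower. Without the WT dendritic cell pair 0 were called and 12 were under that threshold.

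The width of the intervals says what the mean change over both cell types could still be, within the spread between these libraries. It does not bound the difference within a single culture. The 95% interval of the change lay within 2-fold in either direction for 264 of 374 miRNAs (70.6%), and for 131 of the 133 miRNAs with a mean of at least 100 CPM over the 8 libraries (98.5%). The middle of the fitted log2 changes was −0.05, and 90% of them lay between −0.54 and 0.54. In these bulk cultures, fewer cells of a type and less RNA per cell cannot be told apart.

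The pairs differed in how far apart their libraries lay. Among the 133 abundant miRNAs, the SD of the log2 difference (oxLDL over LDL, CPM + 1) was 0.42 in WT dendritic cells, 0.18 in k.o. dendritic cells, 0.28 in WT macrophages and 0.21 in k.o. macrophages. More than 2-fold apart were 5, 0, 2 and 0 of them. WT dendritic cells thus give the widest differences of the 4 pairs, and their median over all 374 miRNAs was −0.16, against 0.00, 0.08 and 0.06 in the other pairs. Across the 133 abundant miRNAs the differences of any 2 pairs had a Pearson r of −0.08 to 0.33 and a Spearman rho of 0.02 to 0.41, a description over miRNAs that share their libraries and depth.

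**Figure D2:**
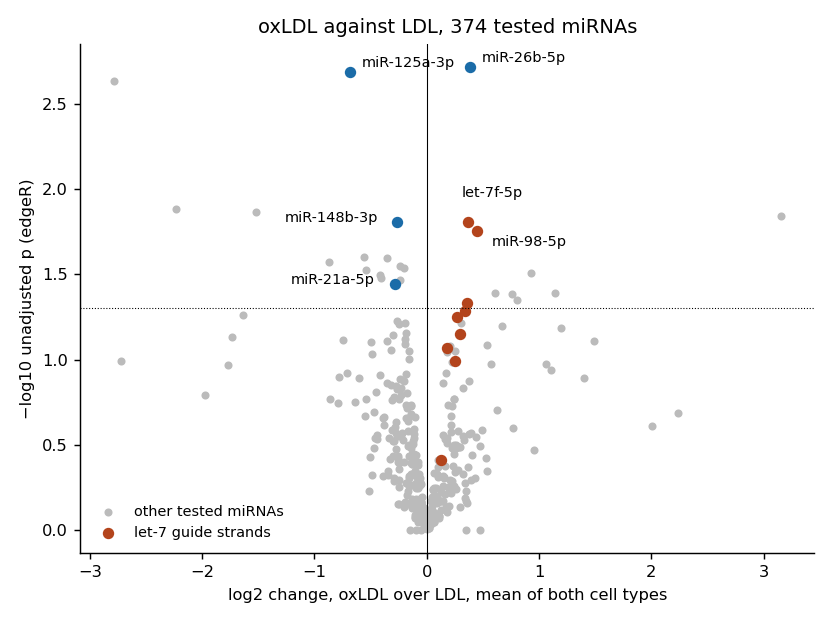
Fitted log2 change of each tested miRNA, oxLDL over LDL as the mean of both cell types (x axis), against −log10 of the unadjusted p (y axis). The dotted line marks an unadjusted p of 0.05. All 9 let-7 guide strands lie right of 0, and no miRNA passes after adjustment.

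The let-7 guides restrain growth-promoting transcripts and are among the most abundant miRNAs of differentiated cells. Together they made up 32.4% of miRNA reads with oxLDL and 20.7% with LDL in WT dendritic cells. In k.o. dendritic cells they made up 25.5% with oxLDL and 23.4% with LDL. The oxLDL share was 13.6% in WT macrophages, against 10.96% with LDL, and 16.8% in k.o. macrophages, against 14.1%. In each of the 4 cultures the oxLDL library held more let-7 than its LDL partner, with by far the widest gap in WT dendritic cells, while the groups as a whole overlap, since dendritic cells hold more let-7 than macrophages. The eLDL libraries of the same cultures held 17.8%, 18.8%, 10.4% and 13.3%, and the unstimulated libraries 18.8%, 26.4%, 12.9% and 12.4%, in the order WT and k.o. dendritic cells, WT and k.o. macrophages. The oxLDL share thus lay above the unstimulated one in 3 of the 4 cultures and below it in k.o. dendritic cells.

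let-7f-5p, the most abundant member, had 123025 CPM with oxLDL and 66559 CPM with LDL in WT dendritic cells. It had 89534 and 81741 CPM in k.o. dendritic cells, 61472 and 50842 CPM in WT macrophages, and 83309 and 68504 CPM in k.o. macrophages. All 4 pairs are higher with oxLDL, by a log2 difference of 0.89, 0.13, 0.27 and 0.28. The fitted log2 change was 0.37 ± 0.14 (SE, 95% interval 0.08 to 0.66), with an edgeR adjusted p of 0.664. Without the WT dendritic cell pair it was 0.16, and without the libraries of longer tags 0.43. miR-98-5p, encoded beside a let-7f hairpin in Huwe1, had 2499 CPM with oxLDL and 1202 CPM with LDL in WT dendritic cells and 1536 and 1437 CPM in k.o. dendritic cells. In WT macrophages it had 2253 and 1688 CPM, and in k.o. macrophages 3062 and 2506 CPM. These are again 4 pairs of 4 higher with oxLDL, with a fitted change of 0.45 ± 0.17 and an edgeR adjusted p of 0.664. Without the WT dendritic cell pair it was 0.18, and without the libraries of longer tags 0.51.

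Most members shared 1 direction. Of the 9 guides, 8 were higher with oxLDL in every pair by CPM, where 31 of all 374 miRNAs (8.29%) and 19 of the 133 abundant ones (14.3%) were, and with 4 pairs an exact two-sided sign-flip permutation test can reach no lower p than 0.125. In the 3 pairs other than WT macrophages 43 miRNAs (11.5%) were higher throughout, and in the 3 other than WT dendritic cells 69 (18.4%), with these 8 guides among them each time. The exception was let-7e-5p, with 9795 CPM with oxLDL and 6895 CPM with LDL in WT dendritic cells, 7279 and 7004 CPM in k.o. dendritic cells, 525.9 and 500.4 CPM in WT macrophages, and 154.9 and 160.1 CPM in k.o. macrophages. The fitted changes of the other members ranged from 0.18 ± 0.10 for let-7i-5p to 0.36 ± 0.17 for let-7b-5p, with edgeR adjusted p of 0.664 to 0.683. Without the WT dendritic cell pair let-7a-5p, let-7c-5p, let-7d-5p, let-7g-5p and let-7i-5p gave 0.08 to 0.19. The median of the 9 fitted changes was 0.30 and that of all tested miRNAs −0.05. Members share much of their sequence, so they are not independent readings of the family.

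How many members stay above 0 depends on the scaling. By CPM the let-7 median was smallest in k.o. dendritic cells, at 0.11, where all 9 stayed above 0 with each scaling. With TMM factors 7 of 9 were higher in all 4 pairs (6.95% of all tested), with RLE factors 8 (8.02%) and with upper-quartile factors 5 (5.08%), and each guide that was not higher was so in a macrophage pair. The distance from the middle of all miRNAs is nearly free of the scaling. The let-7 median lay above the median of the 374 tested miRNAs by a log2 value of 0.68 in WT and 0.11 in k.o. dendritic cells, and by 0.29 in WT and 0.16 in k.o. macrophages. All 9 members lay above it in both dendritic cell pairs and 8 of 9 in both macrophage pairs.

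**Figure D3:**
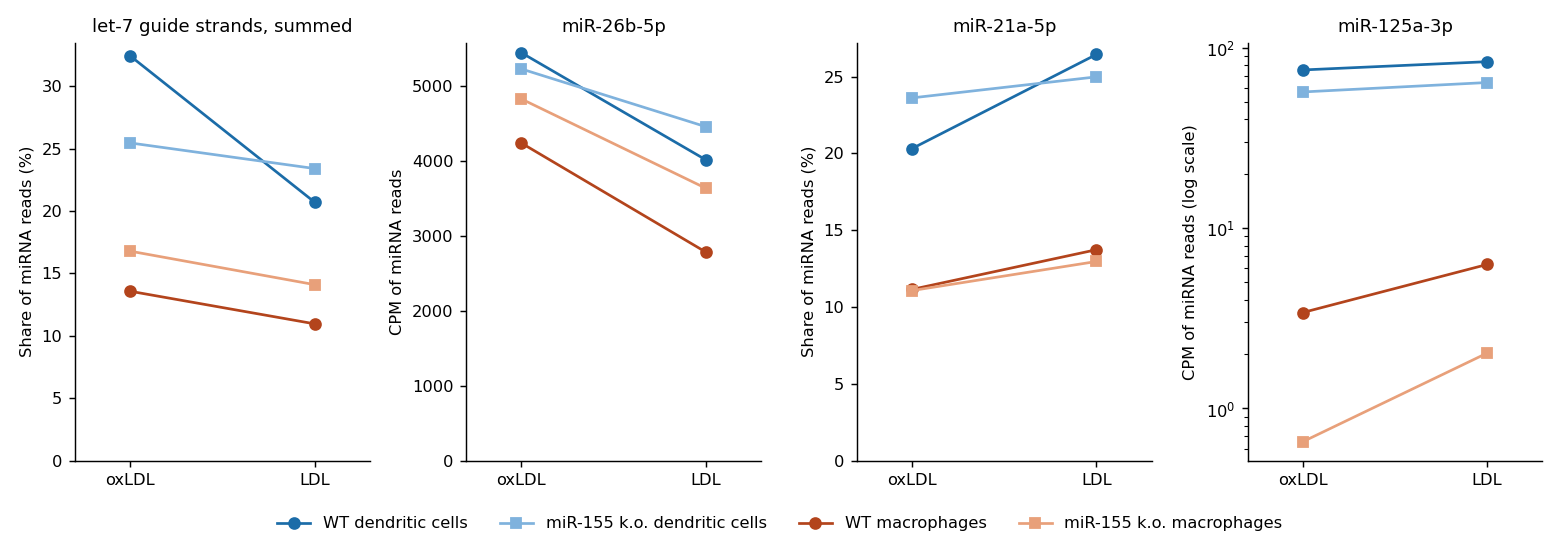
Levels of let-7 guide strands (summed), miR-26b-5p, miR-21a-5p and miR-125a-3p in the oxLDL (left) and LDL (right) library of each culture, 1 point a library, joined within a culture. The miR-125a-3p axis is logarithmic. Let-7 and miR-26b-5p are higher with oxLDL in all 4 cultures, and miR-21a-5p and miR-125a-3p lower.

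Some passenger strands of let-7 went against their guides. let-7i-3p had 17.7 CPM with oxLDL and 21.8 CPM with LDL in WT dendritic cells, 13.6 and 15.9 CPM in k.o. dendritic cells, 10.6 and 12.3 CPM in WT macrophages, and 10.3 and 13.6 CPM in k.o. macrophages. let-7a-1-3p, which is shared with the let-7c-2 hairpin, had 19.1 and 24.1 CPM, 17.4 and 19.2 CPM, 6.69 and 13.5 CPM, and 8.51 and 12.8 CPM with oxLDL and with LDL in the same cultures. Both are lower with oxLDL in 4 of 4 pairs, with fitted changes of −0.32 ± 0.21 and −0.56 ± 0.22 and edgeR adjusted p of 0.719 and 0.664. The ratio of guide to passenger reads was accordingly higher with oxLDL in 4 of 4 pairs for let-7a, let-7d, let-7i and miR-98, with let-7i at 1761 with oxLDL and 1053 with LDL in WT dendritic cells and at 1834 and 1398 in WT macrophages. A ratio within a library does not depend on its scaling. It shows unequal change of the 2 strands, not which of them differed. The other passengers tested were mixed. Lower in 3 of 4 pairs were let-7c-1-3p, let-7d-3p and miR-98-3p, and higher in 3 of 4 were let-7b-3p and let-7f-1-3p. Of the family, the ratio was taken for let-7a, let-7d, let-7i and miR-98 only. For let-7a and let-7i the count of 4 pairs follows from the directions of their strands. Outside the family the ratio was higher in 4 of 4 pairs for miR-26b, in 3 for miR-125a and miR-210 and in 1 for miR-21a. The share over all hairpins was not taken. The reads of let-7b went the other way in WT dendritic cells, with 55173 guide and 60 passenger reads with oxLDL and 30125 and 3 with LDL.

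miRNAs encoded beside let-7 hairpins had no common direction, and their difference from let-7 was not tested. miR-99a-5p, encoded beside let-7c-1, had 1515 CPM with oxLDL and 2266 CPM with LDL in WT dendritic cells and 1787 and 2051 CPM in k.o. dendritic cells. In macrophages it was nearly absent, at 5.28 and 3.91 CPM in WT and 7.99 and 5.65 CPM in k.o. cells. miR-99b-5p, encoded beside let-7e, was lower in both dendritic cell pairs, at 27194 and 39225 CPM in WT and 25787 and 29352 CPM in k.o. cells. The fitted changes of miR-99a-5p, miR-100-5p, miR-125b-5p, miR-99b-5p and miR-125a-5p over both cell types were 0.01, 0.35, 0.22, −0.17 and −0.09, with edgeR adjusted p of 0.732 to 0.984. miR-99a-5p and miR-125b-5p were higher with oxLDL in both macrophage pairs, from few reads, and lower in both dendritic cell pairs. The list made of both arms of miR-99b, let-7e and miR-125a had 6 of 6 members tested, 0 called, and a median change of −0.14.

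miR-26b-5p, whose family restrains cell growth and has been reported to act on cholesterol efflux genes, was the miRNA of lowest p. It had 5448 CPM with oxLDL and 4019 CPM with LDL in WT dendritic cells. It had 5232 and 4461 CPM in k.o. dendritic cells, 4242 and 2788 CPM in WT macrophages, and 4831 and 3640 CPM in k.o. macrophages. Every pair is higher with oxLDL, and the oxLDL and LDL values overlap only across cultures. The fitted change was 0.39 ± 0.10 (95% interval 0.17 to 0.61, edgeR adjusted p = 0.287), and it was 0.38 without the libraries of longer tags and 0.32 without the WT dendritic cell pair. Those 2 libraries held the least miR-26b-5p of the 10 macrophage libraries, 2788 CPM in the WT LDL and 2938 CPM in the unstimulated k.o. library. Tags of up to 20 nt were 6.77% of its reads in the WT LDL library and 19.5% in the WT oxLDL library. The unstimulated libraries of the other 3 cultures had 4559 CPM in WT dendritic cells, 5424 CPM in k.o. dendritic cells and 3364 CPM in WT macrophages.

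miR-26a-5p has the same seed and did not show the same pattern. It had 10522 CPM with oxLDL and 12335 CPM with LDL in WT dendritic cells, 15122 and 12908 CPM in k.o. dendritic cells, 12452 and 12125 CPM in WT macrophages, and 15283 and 12862 CPM in k.o. macrophages. It was lower in 1 pair and higher in 3, with a fitted change of 0.04 ± 0.10 (95% interval −0.16 to 0.24). The other strand of the hairpin, miR-26b-3p, had 45.4 and 74.1 CPM, 57.2 and 60.0 CPM, 39.6 and 44.9 CPM, and 45.2 and 38.5 CPM in the same order of cultures, and the ratio of guide to passenger was higher with oxLDL in 4 of 4 pairs.

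miR-21a-5p, which restrains Pdcd4 and is the most abundant miRNA of the dendritic cells, was lower with oxLDL. It had 203108 CPM with oxLDL and 264334 CPM with LDL in WT dendritic cells, 236095 and 249774 CPM in k.o. dendritic cells, 111475 and 137287 CPM in WT macrophages, and 110707 and 129628 CPM in k.o. macrophages. All 4 pairs are lower, as were 26 of 374 miRNAs (6.95%) and 8 of the 133 abundant ones (6.02%), and the k.o. dendritic cells differ least. The fitted change was −0.28 ± 0.12 (95% interval −0.54 to −0.02, edgeR adjusted p = 0.664), and −0.20 without the libraries of longer tags. Since CPM values sum to a fixed total, a share held by miR-21a-5p in one library cannot be held by let-7 there. The share of miR-21a-5p and that of let-7 went in opposite directions in every pair, and which of them differed in amount per cell cannot be told apart in relative counts. The other abundant miRNAs lower in 4 of 4 pairs by CPM were miR-10a-5p, miR-28a-5p, miR-30b-5p, miR-30e-5p, miR-140-3p, miR-148b-3p and miR-425-5p. With TMM factors miR-10a-5p, miR-28a-5p and miR-140-3p were lower in 3 of 4. Beside 8 let-7 guides and miR-26b-5p, the abundant miRNAs higher in 4 of 4 pairs by CPM were miR-155-5p, miR-1839-5p, miR-296-3p, miR-30b-3p, miR-320-3p, miR-340-5p, miR-574-5p, miR-669c-5p, miR-744-5p and miR-93-5p. For miR-155-5p the k.o. pairs held only 7 and 4 reads in dendritic cells and 45 and 33 in macrophages. With TMM factors some did not keep 4 of 4, among them miR-1839-5p, miR-296-3p and miR-320-3p, higher in 3, and miR-30b-3p, higher in 2.

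miR-148b-3p, whose family is known to act on the LDL receptor, had 2196 CPM with oxLDL and 2778 CPM with LDL in WT dendritic cells, 2108 and 2173 CPM in k.o. dendritic cells, 4270 and 5198 CPM in WT macrophages and 5124 and 6157 CPM in k.o. macrophages. The difference was smallest in k.o. dendritic cells, and the fitted change was −0.27 ± 0.10 with an edgeR adjusted p of 0.664, and −0.23 without the libraries of longer tags. Its relatives of the same seed, miR-148a-3p and miR-152-3p, had fitted changes of −0.05 ± 0.10 and 0.06 ± 0.11.

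The arms of miR-125a had unlike fitted changes over both cell types, but their ratio had no common direction in dendritic cells. The log2 difference (oxLDL over LDL) of the ratio of 5p to 3p reads was 0.26 in WT and −0.09 in k.o. dendritic cells. In macrophages it was 0.76 in WT and 1.69 in k.o. cells, from few 3p reads. miR-125a-3p had 75.3 CPM with oxLDL and 83.6 CPM with LDL in WT dendritic cells and 56.8 and 64.1 CPM in k.o. dendritic cells. In macrophages it was rare, with 3.40 and 6.29 CPM in WT cells and 0.655 and 2.03 CPM in k.o. cells, or 29 and 74 reads and 5 and 14 reads. It was lower with oxLDL in 4 of 4 pairs by CPM. With TMM factors, which the fit uses, the WT dendritic cell pair was at 0.007 and the other pairs were below 0. Its fitted change over both cell types was −0.68 ± 0.18 (95% interval −1.07 to −0.29, edgeR adjusted p = 0.287), and −0.85 without the libraries of longer tags. The guide miR-125a-5p, which acts on inflammatory signalling in macrophages, had 10086 and 9350 CPM, 8345 and 10030 CPM, 660.8 and 721.0 CPM, and 193.5 and 186.3 CPM in the same order of cultures, higher in 2 pairs and lower in 2. The other miRNAs that fill the lists of lowest p with 1 direction in 4 of 4 pairs by CPM were miR-466i-5p, miR-28a-5p and miR-210-5p. miR-466i-5p was at 0.76 ± 0.34. Lower with oxLDL were miR-28a-5p at −0.36 ± 0.14 (−0.16 without the libraries of longer tags and −0.20 without the WT dendritic cell pair) and miR-210-5p at −0.87 ± 0.35. With TMM factors miR-28a-5p was at 0.004 in k.o. and miR-210-5p at 0.01 in WT dendritic cells. miR-466i-5p belongs to a large family of near-identical hairpins, so its reads may come from several. miR-210-5p is the passenger of the hypoxia-induced miR-210-3p, which itself had a fitted change of −0.13 ± 0.20.

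**Figure D4:**
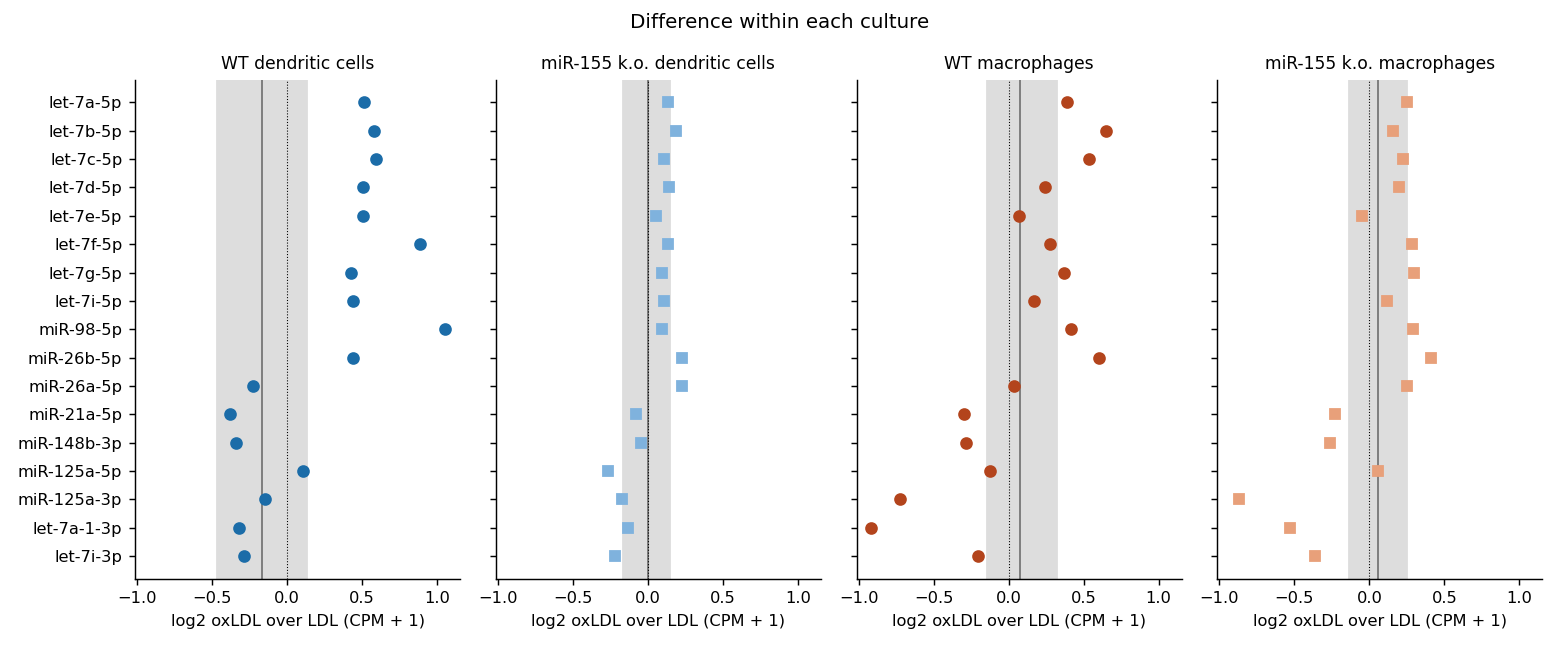
Log2 difference (CPM + 1, oxLDL over LDL) of the let-7 guides and of the other miRNAs described, 1 panel a culture. The grey band spans the quartiles and the grey line the median of all 374 tested miRNAs. The let-7 guides lie farthest right in WT dendritic cells, and let-7a-1-3p, let-7i-3p, miR-21a-5p and miR-125a-3p lie left of 0 in every panel.

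Dendritic cells alone gave 0 calls among 374 miRNAs (0%) with edgeR, 20 at an unadjusted p under 0.05 (5.35%, 13 higher and 7 lower with oxLDL) and 0 calls with DESeq2, which had 23. Of the let-7 guides, 4 of 9 were in that unadjusted group, and their median change was 0.44. The fitted change was 0.63 ± 0.19 for let-7f-5p, 0.70 ± 0.24 for miR-98-5p, 0.43 ± 0.15 for miR-26b-5p and 0.38 ± 0.14 for let-7i-5p, all at an edgeR adjusted p of 0.652. For miR-1839-5p, whose hairpin is also annotated as a small Cajal body RNA, it was 0.39 ± 0.16. These values lean on the WT pair. Without it the fit of let-7f-5p gave 0.15, that of miR-98-5p 0.11, that of let-7i-5p 0.12, that of miR-26b-5p 0.25 and that of miR-1839-5p 0.13.

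Lower with oxLDL in both dendritic cell pairs and lowest in p were miR-194-5p, miR-6236-5p, miR-338-3p, miR-33-5p and miR-6240-3p, with fitted changes of −0.52 to −1.12 and edgeR adjusted p of 0.652 to 0.658. miR-194-5p had 15.6 CPM with oxLDL and 28.5 CPM with LDL in WT dendritic cells and 24.4 and 32.1 CPM in k.o. dendritic cells. miR-338-3p had 13.5 and 30.9 CPM in WT and 17.9 and 22.6 CPM in k.o. dendritic cells. For both, the WT pair lies farther apart than the k.o. pair, and without it the fit of miR-338-3p gave −0.32. miR-33-5p, which lies in an intron of the sterol regulator Srebf2 and represses the cholesterol exporter Abca1, had 4.45 CPM with oxLDL and 14.9 CPM with LDL in WT dendritic cells, but 11.2 and 13.6 CPM in k.o. dendritic cells. In macrophages it had 16.9 and 19.96 CPM in WT and 33.5 and 32.9 CPM in k.o. cells. Only the WT dendritic cell pair lies far apart, and the fit without it gave −0.26 in place of −0.82. miR-6240-3p had 259.9 CPM with oxLDL and 690.0 CPM with LDL in WT dendritic cells and 385.2 and 402.6 CPM in k.o. dendritic cells. For miR-6236-5p and miR-6240-3p, whose annotated hairpins other RNAs may resemble, the fit without that pair gave −0.12 and −0.05, in place of −1.12 and −0.61. When the oxLDL library of k.o. dendritic cells was left out, the oxLDL level of dendritic cells came from the WT library alone. The fitted change was then 0.97 for let-7f-5p, 1.12 for miR-98-5p and 1.065 for miR-7a-5p. It was −1.55 for miR-33-5p and −1.13 for miR-6240-3p. miR-7a-5p had 2028 CPM with oxLDL and 1015 CPM with LDL in WT dendritic cells and 1569 and 1659 CPM in k.o. dendritic cells.

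Macrophages alone gave 0 calls among 374 (0%) with edgeR, 26 at an unadjusted p under 0.05 (6.95%, 4 higher and 22 lower with oxLDL) and 0 calls with DESeq2, which had 25. That split moves with the scaling. With counts scaled to total miRNA reads 14 were higher and 8 lower at that threshold. Without the libraries of longer tags 12 remained under it, 5 higher and 7 lower, and the smallest edgeR adjusted p was 0.66 in place of 0.217. The value of 0.217 belonged to miR-125a-3p, at −1.29 ± 0.30, from the 29 and 74 and the 5 and 14 reads given above. Without the libraries of longer tags it was at −1.61, with the LDL level from the k.o. library of 14 reads alone. The fitted change was −0.44 ± 0.14 for miR-148b-3p, −0.39 ± 0.14 for miR-30b-5p, −0.33 ± 0.12 for miR-140-3p, −0.59 ± 0.21 for miR-222-5p and −0.97 ± 0.32 for let-7a-1-3p, each at an edgeR adjusted p of 0.478. miR-140-3p, abundant in macrophages, had 4063 CPM with oxLDL and 4692 CPM with LDL in WT macrophages and 3764 and 4118 CPM in k.o. macrophages. miR-222-5p had 23.95 and 32.8 CPM in WT and 36.5 and 49.1 CPM in k.o. macrophages, but 329.7 and 256.1 CPM in WT and 324.4 and 341.0 CPM in k.o. dendritic cells. Both are lower in both macrophage pairs, and miR-222-5p has no common direction in dendritic cells. Of the 9 let-7 guides, 0 had an unadjusted p under 0.05 in the macrophage fit. Their median change there was 0.16, and the members ranged from −0.15 to 0.23. In that fit let-7f-5p was at 0.12 ± 0.19 and let-7i-5p at −0.02 ± 0.14. Without the libraries of longer tags let-7a-1-3p gave −0.63, miR-140-3p −0.19, miR-148b-3p −0.35, miR-30b-5p −0.28 and miR-222-5p −0.67.

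Of those higher in both macrophage pairs, miR-26b-5p was at 0.35 ± 0.15, miR-5099-3p at 0.61 ± 0.24, miR-1964-3p at 0.86 ± 0.34, miR-127-3p at 1.05 ± 0.45 and miR-92b-3p at 1.10 ± 0.53, with edgeR adjusted p of 0.562 to 0.65. Without the libraries of longer tags these 5 were at 0.34 to 1.05. miR-5099-3p had 64.0 CPM with oxLDL and 34.0 CPM with LDL in WT macrophages and 69.0 and 44.9 CPM in k.o. macrophages. miR-127-3p, from the imprinted Dlk1-Dio3 cluster that stromal and embryonic cells use, had 24.9 CPM with oxLDL and 9.77 CPM with LDL in WT macrophages and 21.1 and 10.0 CPM in k.o. macrophages. The stromal marker miR-199a-3p was likewise higher in both, with 5.17 and 1.27 CPM in WT and 2.09 and 0.579 CPM in k.o. macrophages. Over the 9 stromal markers the sum was 290.5 CPM with oxLDL and 139.5 CPM with LDL in WT macrophages, and 132.1 and 119.9 CPM in k.o. macrophages, much of it miR-10b-5p with 163.8 and 113.0 CPM in WT and 126.3 and 114.3 CPM in k.o. cells. The 8 markers other than miR-10b-5p summed to 126.8 and 26.5 CPM in WT and 5.76 and 5.65 CPM in k.o. macrophages, with miR-214-3p at 0 in all 4 of these libraries and miR-143-3p at 118.7 and 24.5 CPM in WT and 2.75 and 4.06 CPM in k.o. cells. The part of stromal cells in the value of miR-127-3p was not tested. let-7c-1-3p had 0 reads in both oxLDL libraries and 6 and 7 reads in the WT and k.o. LDL libraries of macrophages, and its fitted change, which depends on the prior count, is not a bound.

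The difference between the cell types was tested directly, as the macrophage change minus the dendritic cell change. Of 374 miRNAs 0 were called (0%) with edgeR, 20 had an unadjusted p under 0.05 (5.35%, 7 higher and 13 lower), and DESeq2 called 0, with 18 at that threshold. The 95% interval lay within 2-fold for 137 of 374 (36.6%), fewer than for either cell type alone (208 of 374 in each, 55.6%). Among those of adequate reads and lowest p were miR-6236-5p at 1.73 ± 0.56, miR-194-5p at 0.64 ± 0.25 and miR-5099-3p at 0.73 ± 0.34, and on the other side miR-125a-3p at −1.23 ± 0.37, miR-378a-3p at −0.74 ± 0.24, miR-222-5p at −0.82 ± 0.29 and miR-877-5p at −0.70 ± 0.28, with edgeR adjusted p of 0.533 to 0.809. Without the WT dendritic cell pair these differences were smaller for miR-6236-5p (0.79), miR-378a-3p (−0.45) and miR-222-5p (−0.49), and that of miR-378a-3p was −0.48 without the libraries of longer tags. For the let-7 guides the median difference was −0.37, from −0.54 for let-7e-5p to −0.19 for let-7g-5p, and 0 of 9 had an unadjusted p under 0.05. All 9 were below 0 in this fit, but the 95% interval of each member included 0, and the sign rests on the WT dendritic cell pair. Without that pair the median was 0.06, with 6 members above 0 and 3 below. By CPM the mean of the macrophage pairs was below that of the dendritic cell pairs for 6 members and above it for 3, let-7b-5p, let-7c-5p and let-7g-5p. miR-9-3p, with 0 to 3 reads in dendritic cells and 456 to 792 in macrophages, and miR-99a-3p, with 0 to 3 reads in macrophages and 814 to 1490 in dendritic cells, rest on 1 cell type alone.

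miR-155-5p, which inflammatory signals induce in myeloid cells, was slightly higher with oxLDL in both WT cultures. The ratio of oxLDL to LDL was 1.04 in WT dendritic cells (95% Poisson interval 0.989 to 1.09) and 1.24 in WT macrophages (1.23 to 1.25). The interval covers counting error alone, and the WT macrophage ratio again sets libraries of unlike tag length against each other. In the fit, which takes in the k.o. cultures, its log2 change was 0.20 ± 0.55, and 0.20 without the libraries of longer tags. The k.o. libraries held 7 reads with oxLDL and 4 with LDL in dendritic cells, and 45 and 33 in macrophages. Without the longer-tag libraries the only macrophage LDL library is that of k.o. cells. The sign is not stable, at −1.11 without the LDL and 1.65 without the oxLDL library of WT dendritic cells. Each time a k.o. library is then the only dendritic cell library of that lipoprotein, so these values do not describe WT cells. In WT macrophages the passenger went the other way, with 1368 reads with oxLDL and 2179 with LDL, a ratio of 0.868 (0.810 to 0.929).

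The 10 miRNAs with the most reads in dendritic cells were miR-21a-5p, let-7f-5p, let-7a-5p, miR-10a-5p, miR-27b-3p, miR-222-3p, let-7c-5p, miR-22-3p, miR-99b-5p and miR-92a-3p. miR-10a-5p, which held 4.62% of miRNA reads with oxLDL and 4.66% with LDL in WT cells and 4.69% and 4.84% in k.o. cells, had a fitted change of 0.06 with a 95% interval of −0.20 to 0.33. That of miR-22-3p was 0.01 (−0.25 to 0.28). In macrophages miR-146b-5p, a brake on NF-kB signalling, came first with 25.9% and 25.2% in WT cells and 25.2% and 26.2% in k.o. cells, followed by miR-21a-5p, miR-181a-5p, let-7f-5p, miR-10a-5p, miR-191-5p, miR-92a-3p, let-7a-5p, miR-142a-5p and let-7i-5p. The change of miR-146b-5p was −0.17 (−0.44 to 0.10) and that of miR-142a-5p, a marker of blood cells, −0.07 (−0.38 to 0.24). The intervals of these 4 lay within 2-fold in either direction, and they measure only the spread between these libraries.

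Groups of miRNAs with a known tie to oxLDL, lipids or inflammation had no called member in any of the 4 comparisons, and over all tested miRNAs 6.68% had an unadjusted p under 0.05 over both cell types. Of 15 miRNAs that the literature links to oxLDL in myeloid cells, 15 were tested, with a median change of −0.09 over both cell types, and miR-21a-5p was the 1 with an unadjusted p under 0.05. Among them miR-146a-5p was at −0.01 ± 0.13, miR-223-3p at −0.04 ± 0.09 and miR-29a-3p at −0.02 ± 0.11. The lipid handling list had 19 of 24 members tested and a median of −0.03, with miR-26b-5p higher and miR-33-5p lower at an unadjusted p under 0.05. Of 25 inflammation-induced miRNAs 24 were tested, with a median of −0.17, and miR-21a-5p, miR-125a-3p and miR-155-3p were lower at that threshold, the last from 0 reads with oxLDL and 4 with LDL in WT dendritic cells beside the macrophage reads above. The oxidative stress and hypoxia list had 13 of 15 tested, a median of −0.08 and miR-210-5p lower.

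Of the let-7 guides 3 of 9 had an unadjusted p under 0.05 over both cell types, and of each family or cluster list below no more than 2, beside 6.68% of all tested miRNAs. The median change was 0.03 for the miR-17~92 clusters and their paralogues (12 tested), −0.05 for the miR-23/27/24 clusters (11), −0.02 for the miR-29 family (3), −0.13 for the miR-30 family (7), −0.14 for the miR-181 family (7) and −0.05 for the miR-183 cluster (3), beside −0.05 for all 374. In the miR-30 family, miR-30b-5p and miR-30e-5p were lower in 4 of 4 pairs, at −0.23 and −0.24. Marker lists had medians of −0.04 for myeloid (7 tested), −0.23 for erythroid (2), 0.28 for lymphoid (1), −0.04 for mast cell and granulocyte (5), 0.95 for stromal (3), 0.03 for epithelial (6), 0.40 for endothelial (2) and −0.08 for liver and serum markers (2). These lists overlap, since miR-223-3p and miR-486-5p also belong to the mast cell and granulocyte list, so they are not separate readings. The 3 stromal markers tested were at 0.02 to 1.07, and none was called.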

How the data were processed

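In the deposited files each line holds 1 distinct tag (18 to 45 nt) and its read count, without alignment or miRNA names. The sources used here do not give the authors' adapter removal or length limits. The submitters' processing notes name CASAVA 1.8.2. Total RNA was taken up in Trizol and libraries made with a TruSeq kit, per the labels' protocols.

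Exact matching placed tags from 18 up to 26 nt on the 1174 hairpins of GENCODE M21 (GRCm38), with arms set by RefSeq mature sequences (1659) or, where none was given, by the loop that RNAfold 2.7.2 predicts (368), and a tag had to start within 2 nt of the arm's own start. Identical arms form 1 miRNA, and reads that match several were divided equally, with the sums rounded for DESeq2 only. This gave 1191 detected miRNAs, of which 374 were tested, those that reached 5 CPM in 2 or more libraries.

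Counts were scaled by TMM and fitted in edgeR 4.0.16 (R 4.3.3) over all 20 libraries, with culture and stimulus within cell type as terms (8 residual degrees of freedom), edgeR's robust quasi-likelihood test, and p-values adjusted over the 374 by Benjamini-Hochberg. The spread comes from how far WT and k.o. depart from parallel responses. DESeq2 1.42.0, other scalings, filters, library sets, tag lengths, a fit without the culture block and the omission of each library were tried as alternatives. Pair differences use log2(CPM + 1). The comparison, the lists and the rule for naming were chosen with earlier results of these data known. The rule names called miRNAs and, where there are fewer than 5 each way, those of lowest p with at least 50 reads and 1 direction in every pair of the comparison; miR-155; list members; and the 10 most abundant of each cell type. miR-7a-5p, miR-652-3p, let-7i-3p, miR-26b-3p, miR-152-3p and the other relatives of named miRNAs were added after their values were seen.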

Additional observations from a re-analysis of the deposited data

Results flagged for a closer look

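Among the named miRNAs, the 4 pair differences of miR-92b-3p held 1 value far from the rest by Dixon's criterion, with a ratio of gap to range of 0.836. The log2 difference was −0.0581 in WT dendritic cells (6.45 CPM with oxLDL and 6.75 CPM with LDL), against 1.24 in k.o. dendritic cells, 1.03 in WT macrophages and 1.13 in k.o. macrophages. It was 1 of 36 miRNAs examined in this way, and the criterion marks about 1 in 20 groups by chance.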

How the results depend on the processing

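With TMM, RLE or upper-quartile factors, total miRNA reads, a filter at 20 CPM, DESeq2, 12 or 8 libraries, single-match reads and tags of 20 to 24 nt, 0 miRNAs were called in the 4 comparisons. With no filter on low counts (1191 tested) 4 were called over both cell types (let-7f-5p, miR-26b-5p and miR-98-5p higher, let-7c-1-3p lower), 4 in dendritic cells, 1 in macrophages and 2 for the difference. Leaving out 1 library gave 0 calls, except in dendritic cells, where the range was 0 to 5. Without the culture as replicate block 0 were called in each, with 10, 11, 14 and 9 at an unadjusted p under 0.05, against 25, 20, 26 and 20 with it. Let-7 guides higher in every pair were 8 of 9 by CPM and 5 with upper-quartile factors. Over both cell types let-7e-5p turned to −0.012 without the WT dendritic cell pair. Leaving out 1 library, let-7e-5p ranged from −0.034 (without the WT dendritic cell oxLDL library) to 0.26. miR-26a-5p ranged from −0.031 (without the k.o. dendritic cell oxLDL library, and −0.022 without the k.o. macrophage LDL library) to 0.11. miR-155-5p ranged from −1.11 (without the WT dendritic cell LDL library) to 1.65 (without the oxLDL one). For miR-155-5p a k.o. library of few reads is then the only dendritic cell library of that lipoprotein. What moved the other values was not tested. Of 624 other values of 48 single results 615 kept direction and side of the threshold. Omitting the WT dendritic cell pair or the longer-tag libraries, and the RLE and upper-quartile counts of let-7, were chosen after seeing the data. With 1 library a condition, changes under 2-fold in rare miRNAs may not be detectable here.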
